A study of Homo sapiens with 2 samples.

Results

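The genes described here encode the proteins that copy DNA: the origin recognition complex, the loaders and subunits of the replicative helicase, the replicative polymerases, the sliding clamp and its loader, single-strand binding proteins, enzymes that make deoxynucleotides, and the methylation factor UHRF1. They are 49 genes of a fixed list, matched by symbol among the 39720 symbols of the deposited table, and all 49 were found. The rule for the list names functions and uses no measured value, though it was drawn up with earlier results of these data known. RNA came from A549 cells, an established human lung adenocarcinoma line. The cells received a lentivirus with a control hairpin (shNC) or with a hairpin against DEPDC1B (shDEPDC1B), both in the presence of polybrene at 5 µg/mL, and both were harvested after 2 days. Each group is 1 library, so nothing below has a replicate check, and 2 libraries rather than 2 conditions are compared. No selection for infected cells is stated in the labels.

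Replication is prepared when the origin recognition complex, CDC6 and CDT1 load the ring of MCM2 to MCM7 on DNA, and it starts when CDC45 and GINS join that ring and turn it into a working helicase. Polymerase alpha with primase lays primers, polymerases epsilon and delta extend them, and the clamp loader RFC places the PCNA ring that holds the polymerases on DNA. Many of these genes are known targets of E2F transcription factors, which drive their expression as cells move from G1 into S phase.

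The depth was 18647290 counts in shNC and 18862371 in shDEPDC1B. DEPDC1B itself had 329 and 39 counts, which left 12.5% of the shNC level. Ratios below are of counts scaled by TMM factors (1.03 and 0.967), are given as log2 of shDEPDC1B over shNC, and carry in square brackets an exact 95% interval that covers counting error only. The epithelial keratins KRT8 and KRT18 had between 97608 and 106007 counts in each library. Other epithelial markers were lower, with 38858 and 44510 counts for KRT7, 3078 and 2649 for CDH1, and 429 and 475 for KRT19. EPCAM had only 37 and 65 counts, 0.89 [0.29, 1.52]. Among leukocyte, endothelial and fibroblast markers, CD3E and DCN had no count in either library, PTPRC, VWF, CDH5, PDGFRB, LYZ, PECAM1 and COL1A2 had at most 11, and CD14 (107 and 175) and COL1A1 (99 and 105) had more.

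Because many of these promoters are known for E2F sites, 30-base stretches around E2F words are shown first. The words TTTCGCGC, TTTGGCGC and TTTCCCGC were searched on both strands in windows from 250 bases before to 50 bases after each RefSeq start (GRCh38.p14), and each stretch is printed so that the word, in capitals, reads as spelled. LIG1 and RFC3 are shown because, among the genes past 1.5-fold that have a window, they are 2 of the 6 whose interval bound nearest to equality lies farthest from it. CDT1, GINS2 and UHRF1, which also passed 1.5-fold, and 6 replication genes that did not were added for comparison after the ratios were seen.
CDT1, chr16:88803743-88803772, minus strand: ttcccgccaaaTTTCCCGCgggcgccctgg
GINS2, chr16:85688967-85688996, plus strand: gcggccgccgtTTTCCCGCcacggcgagag
LIG1, chr19:48170440-48170469, minus strand: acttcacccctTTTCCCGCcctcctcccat
RFC3, chr13:33818083-33818112, minus strand: cagagacaagtTTTCCCGCgagctccaaat
UHRF1, chr19:4909476-4909505, minus strand: gctctgattttTTTCCCGCgaaaactcggc
MCM2, chr3:127598402-127598431, plus strand: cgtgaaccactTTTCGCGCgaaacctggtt
MCM3, chr6:52284728-52284757, minus strand: agttcggaagtTTTCGCGCcggggtggagt
MCM6, chr2:135876573-135876602, plus strand: acggaaagggaTTTCGCGCcaaatgcaaag
MCM7, chr7:100101388-100101417, minus strand: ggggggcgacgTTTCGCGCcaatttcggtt
PCNA, chr20:5126663-5126692, plus strand: aacgcacgcctTTTCCCGCccctgacgctg
TYMS, chr18:657603-657632, minus strand: tccgcgcgcctTTTCCCGCggccgtcccgc
The words of MCM6 and PCNA lie outside annotated exons of GENCODE 29, and the others shown lie in an exon of their own gene in at least 1 annotated transcript. In MCM2 the word overlaps another copy of itself on the opposite strand, and in MCM6 it overlaps TTTGGCGC there. The UHRF1 window at this start and another window of the gene each hold 1 such word.

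Of the 49 genes, 10 were higher in shDEPDC1B and 3 were lower, where higher or lower means a ratio of 1.5-fold or more whose interval leaves out equality. That is 20.4% higher and 6.12% lower, against a background of 19.2% and 19.6% of the 13850 genes that reached 30 counts in 1 of the libraries. The share higher was thus near the background and the share lower was below it. Higher were CDT1, CDC45, GINS2, POLD1, POLD4, RFC2, LIG1, RPA2, RPA3 and TK1, and lower were RFC1, RFC3 and UHRF1. All 49 genes passed the count filter, with between 96 and 5938 counts in a library. Their median log2 ratio was 0.25, from -1.14 to 1.51, beside 0.04 for all assessed genes. Without that threshold, the ratio was above 1 for 35 genes (71.4%, against 51.9% of all assessed genes) and below 1 for 14. Intervals lay wholly above equality for 26 genes (53.1%, against 38.9% of all assessed genes) and wholly below for 6 (12.2%, against 34.9%). With libraries scaled by their totals these became 23 above and 11 below. The same 13 genes passed 1.5-fold, where 14.6% of all assessed genes were higher and 23.2% lower. When the trend with transcript length that runs through all genes was subtracted, 6 of the 13 remained past it: CDT1, GINS2, POLD1, LIG1, TK1 and RFC3. Under that correction 25 of the 49 ratios moved beyond their own counting interval. Intervals then lay wholly above equality for 23 genes and wholly below for 11. Shares of intervals over all genes were not computed for these 2 settings.

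**Figure D1:**
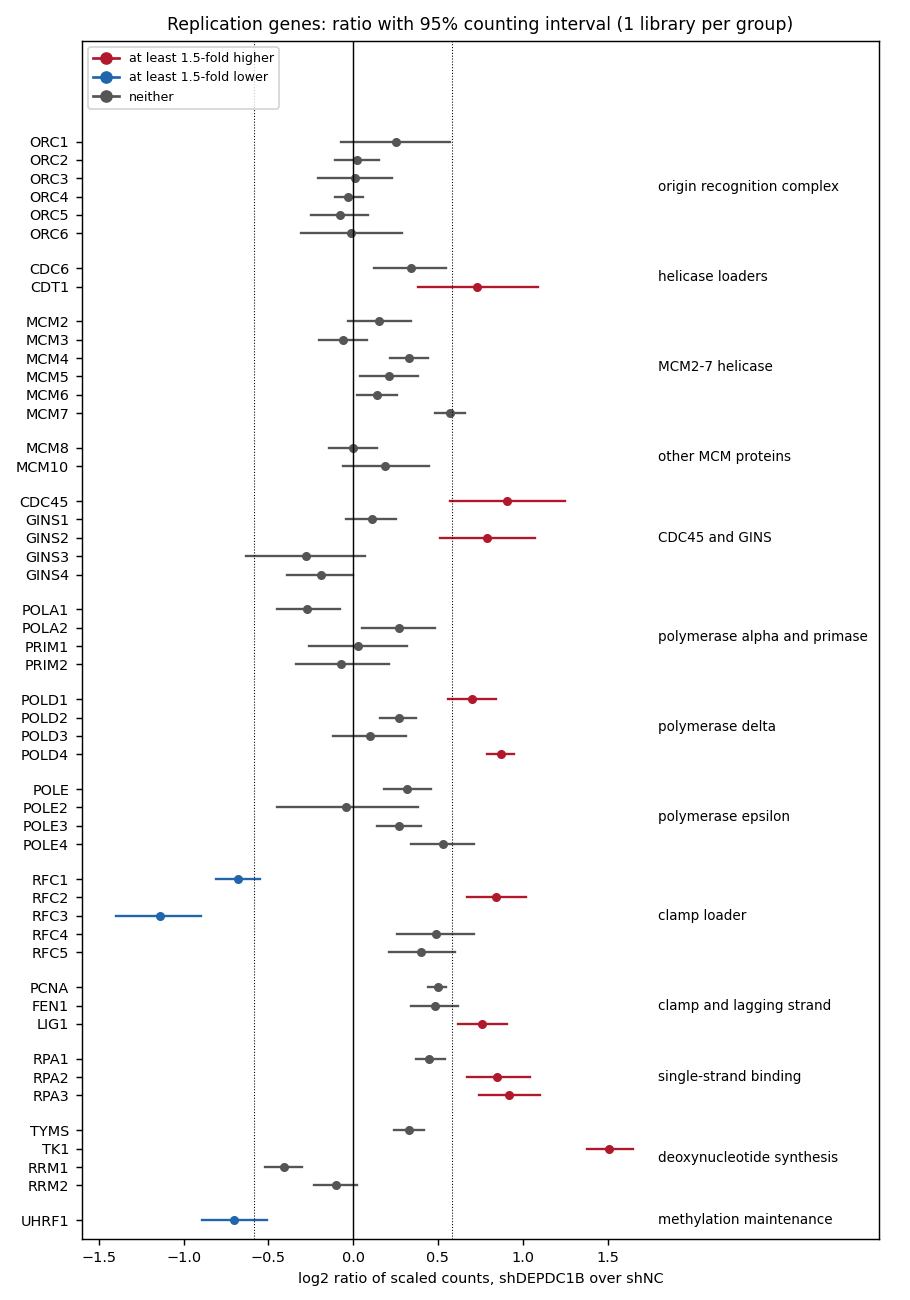
Log2 ratio of scaled counts (x axis) for each of the 49 genes (y axis), grouped by role, as points with 95% counting intervals and dotted lines at 1.5-fold. The origin recognition genes sit near equality, RPA and the clamp genes lie to the right, and the clamp loader spans from RFC3 at -1.14 to RFC2 at 0.84.

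None of the genes of origin recognition passed the threshold. The complex ORC1 to ORC6 marks origins and recruits the loaders. Its 6 genes lay between -0.08 (ORC5) and 0.25 (ORC1), and all 6 intervals included equality. ORC1 is the subunit whose level is known to follow the cell cycle, and it had 158 and 178 counts, 0.25 [-0.07, 0.57]. ORC4, the most abundant by count, had 2254 and 2094, -0.03 [-0.11, 0.06]. Of the 15 pairs of ORC genes, none had a count ratio that moved between the libraries beyond counting error. Over all the roles compared, 44 of 82 pairs did. Pairs with few counts, such as ORC1 with ORC6, have wide intervals, so these shares depend on depth. With the trend with transcript length subtracted the genes were further apart, from -0.45 (ORC5) and -0.44 (ORC6) to 0.39 (ORC4).

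Of the loaders, CDT1 was higher and CDC6 did not reach the threshold. CDT1 brings the MCM ring to the origin and is held back by geminin, and CDC6 is the ATPase that works with the origin recognition complex. CDT1 had 112 counts in shNC against 176, 0.73 [0.38, 1.09], or 1.66-fold. CDC6 had 329 and 393, 0.34 [0.12, 0.55]. The count ratio of CDC6 to CDT1 did not move beyond counting error. Geminin, encoded by GMNN, had 312 and 475, 0.69 [0.48, 0.90]. With the length trend subtracted CDT1 was at 0.66, CDC6 at 0.53 and GMNN at 0.17.

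None of the 6 genes of the MCM ring, the core of the helicase, reached 1.5-fold, and their ratios ran from -0.06 (MCM3) to 0.57 (MCM7). MCM7 came closest, with 1752 and 2467 counts, 1.49-fold, 0.57 [0.48, 0.66]. MCM3 had 872 and 792, -0.06 [-0.20, 0.08]. The count ratio of MCM3 to MCM7, which does not depend on the scaling of the libraries, was 0.645 [0.575, 0.724] times as high in shDEPDC1B as in shNC. MCM4 was at 0.33 [0.22, 0.44], MCM5 at 0.21 [0.04, 0.38], MCM6 at 0.14 [0.02, 0.26] and MCM2 at 0.15 [-0.03, 0.34]. Of 15 pairs in the ring, 9 had a count ratio that moved beyond counting error, beside 44 of all 82 pairs compared. Pairs share genes and are not independent, and each of the 9 but MCM4 with MCM6 held MCM3 or MCM7. MCM7 shares 7.58% of its exon bases with AP4M1 on the opposite strand, and no source used here says whether the reads kept their strand. AP4M1 had 219 and 314 counts. Outside the ring, MCM8, a relative that acts in recombination, was at 0.00 [-0.14, 0.14], and MCM10, which helps to start the helicase, at 0.19 [-0.06, 0.45].

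Of the helicase activators, CDC45 and GINS2 were higher. CDC45 had 114 and 202 counts, 0.91 or 1.87-fold [1.48, 2.38], and GINS2 had 171 and 280, 1.73-fold or 0.79 [0.51, 1.07]. The other subunits of the GINS complex did not pass the threshold. GINS1 was at 0.11 [-0.04, 0.25], GINS3, with 155 and 121 counts, at -0.28 [-0.63, 0.07], and GINS4 had 498 and 412 counts. The count ratio of GINS2 to GINS4 was 1.98 [1.56, 2.51] times as high in shDEPDC1B, and that of CDC45 to GINS2 was 1.08 [0.795, 1.48], which includes no difference. In 8 of 10 pairs among these 5 genes the count ratio moved beyond counting error, beside 44 of all 82 pairs compared. These pairs too share genes and are not independent.

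Among the polymerases, 2 of the 4 delta genes were higher, and none of the alpha, primase and epsilon genes passed the threshold. Polymerase alpha and primase, which make the primers, had a median of -0.02. POLA1 encodes the catalytic subunit and was at -0.27 [-0.45, -0.08], its partner POLA2 at 0.27 [0.05, 0.48], and the primase genes PRIM1 and PRIM2 at 0.03 [-0.26, 0.32] and -0.07 [-0.34, 0.21]. Polymerase delta copies the lagging strand. Its catalytic subunit POLD1 had 669 and 1027 counts, 1.62-fold or 0.70 [0.56, 0.84]. The smallest subunit, POLD4, had 1869 and 3230, 1.83-fold or 0.87 [0.79, 0.95]. POLD2 was at 0.27 [0.16, 0.37] and POLD3 at 0.10 [-0.12, 0.31]. The count ratio of POLD3 to POLD4 was 0.585 [0.498, 0.688] times as high in shDEPDC1B. POLD4 has the shorter transcript, and with the length trend subtracted POLD3 was at 0.14, POLD4 at 0.40 and POLD2 at -0.04. POLD4 shares 33.1% of its exon bases with another annotated locus on the same strand, and POLD1 12.1%, so part of their counts may be assigned differently by another annotation. The same holds for POLA2 (53.7%), RRM2 (27.9%) and PRIM1 (26.0%), and on the opposite strand for MCM2 (30.7%), GINS4 (21.2%) and GINS3 (16.5%).

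Polymerase epsilon copies the leading strand, and its 4 genes had a median of 0.30. Its catalytic subunit POLE had 724 and 855 counts, 0.32 [0.18, 0.46]. The histone-fold subunits POLE3 and POLE4 were at 0.27 [0.14, 0.40] and 0.53 [0.34, 0.71]. POLE2 was at -0.04 [-0.45, 0.38], and its 104 and 96 counts were too few to show a difference of the size seen in POLE. With the length trend subtracted the median of the 4 was -0.01, with POLE at 0.83, POLE4 at 0.01, POLE3 at -0.03 and POLE2 at -0.44.

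The clamp loader had the widest spread of the complexes compared, 1.99 on the log2 scale between RFC2 and RFC3. RFC is a ring of 5 subunits, in which the large subunit RFC1 sits beside RFC2 to RFC5. RFC3 (chromosome 13, 33818049 to 33966558, plus strand, GENCODE 29) had 444 counts in shNC against 190, 2.21-fold lower, -1.14 [-1.40, -0.90]. RFC1 (chromosome 4, 39287456 to 39366375, minus strand) had 1292 and 765, 1.60-fold lower, -0.68 [-0.81, -0.55]. RFC2 (chromosome 7, 74231499 to 74254458, minus strand) had 438 and 743, 1.79-fold higher, 0.84 [0.67, 1.02]. RFC4 and RFC5 did not pass the threshold, at 0.49 [0.26, 0.71] and 0.40 [0.21, 0.60].

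RFC2 and RFC3 were the highest and lowest of the clamp loader genes, on opposite sides of equality. That their count ratio moved by more than either gene follows from this choice of pair. RFC2 and RFC3 had nearly the same count in shNC (438 and 444) and 743 against 190 in shDEPDC1B, so that their count ratio was 3.96 [3.21, 4.90] times as high. In 9 of the 10 RFC pairs the ratio moved beyond counting error, the exception being RFC4 with RFC5. This stands beside 44 of all 82 pairs compared. Such moves were common, since intervals of single genes lay above equality for 38.9% and below it for 34.9% of all assessed genes. No share was computed for pairs of genes in general. The trend with transcript length over all genes gives 0.43 at the length of RFC2, 0.25 at that of RFC3 and -0.20 at that of RFC1, and with it subtracted RFC2 was at 0.41, RFC3 at -1.39 and RFC1 at -0.47. RFC3 was at percentile 6.74 of the ratios of all assessed genes and RFC2 at 90.6. RFC1 can be replaced in the ring by other large subunits. CHTF18, which loads the clamp in sister chromatid cohesion, had 113 and 257 counts, 1.27 [0.94, 1.60], and ATAD5, which takes the clamp off DNA, had 213 and 108, -0.90 [-1.25, -0.56]. Both were past the threshold, and with the length trend subtracted CHTF18 was at 1.26 and ATAD5, at -0.46, came inside it. The partners of CHTF18, CHTF8 and DSCC1, were at 0.43 [0.33, 0.53] and 0.49 [0.16, 0.83].

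The clamp and the lagging strand enzymes had intervals wholly above equality. PCNA, the ring that holds the polymerases, had 4451 and 5938 counts, 1.41-fold or 0.50 [0.44, 0.55]. FEN1, the flap endonuclease that trims primers, had 725 and 958, 0.48 [0.34, 0.62]. LIG1 (chromosome 19, 48115445 to 48170603, minus strand), the ligase that joins Okazaki fragments, had 642 and 1031, 1.70-fold or 0.76 [0.62, 0.91]. Of these 3 genes only LIG1 passed 1.5-fold. With the length trend subtracted PCNA was at 0.00, FEN1 at 0.21 and LIG1 at 0.83. As with MCM7, FEN1 shares bases with a neighbour (7.23% of its exon bases, with TMEM258 on the opposite strand), which had 480 and 829 counts. On the same strand it shares 2.13% with FADS2, which had 8283 and 6841.

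Of the 3 subunits of RPA, which coats single-stranded DNA at the fork, RPA2 and RPA3 were higher. RPA3, the smallest, had 405 and 726 counts, 1.89-fold or 0.92 [0.74, 1.10]. RPA2, the middle one, had 374 and 640, 1.81-fold or 0.85 [0.67, 1.04]. RPA1, the largest, had 2032 and 2628, 1.37-fold or 0.45 [0.37, 0.54]. The count ratio of RPA2 to RPA3 moved by less than counting error, at 0.955 [0.797, 1.14] times, while that of RPA1 to RPA3 was 0.722 [0.629, 0.827] times as high in shDEPDC1B. RPA1 has the longest transcript of the 3, and with the length trend subtracted RPA1 was at 0.58, RPA3 at 0.57 and RPA2 at 0.44, so that RPA1 was no longer the lowest.

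Deoxynucleotide synthesis held the highest ratio of all 49 genes. TK1 (chromosome 17, 78174075 to 78187233, minus strand), the cytosolic thymidine kinase that salvages thymidine, had 607 counts in shNC against 1638, 2.85-fold or 1.51 [1.38, 1.65], at percentile 98.6 of all assessed genes. TYMS, the thymidylate synthase that makes the same product from dUMP, had 1757 and 2088, 0.33 [0.24, 0.42]. The count ratio of TYMS to TK1 was 0.440 [0.393, 0.494] times as high in shDEPDC1B. Ribonucleotide reductase, which supplies all deoxynucleotides, did not pass the threshold. Its large subunit RRM1 had 1638 and 1165, -0.41 [-0.52, -0.30], and its S phase small subunit RRM2 had 1116 and 983, -0.10 [-0.23, 0.02]. RRM2B, the small subunit made outside S phase, was at -0.55 [-0.62, -0.47]. TYMS shares 58.2% of its exon bases with ENOSF1 on the opposite strand (859 and 892 counts), so that its ratio is uncertain without strand. Neither of the 2 windows of TK1 held any of the E2F words searched, though other spellings of an E2F site were not searched. Its windows held 2 CCAAT boxes, the letters that the factor NF-Y is known to bind. They are shown, in capitals, beside those of POLD4 and CDC45, the other genes far from equality whose windows held CCAAT and no E2F word. POLD4 and CDC45 held several CCAAT matches, of which the one nearest to a start is shown. RFC2, also far from equality, had none of the words searched.
TK1, chr17:78187112-78187141, plus strand: cgccgccatggggCCAATcagcgcccggcc
TK1, chr17:78187081-78187110, plus strand: cacggcgtgctggCCAATcacgagccggcc
POLD4, chr11:67353603-67353632, plus strand: ggaaagacttcagCCAATggcaggccgcct
CDC45, chr22:19479864-19479893, plus strand: gtgatccctggaCCAATcggaggagccgtg

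UHRF1 (chromosome 19, 4903080 to 4962154, plus strand) recognises newly copied hemimethylated DNA and brings the methyltransferase DNMT1 to it. It had 623 and 364 counts, 1.62-fold lower, -0.70 [-0.89, -0.51]. DNMT1 had 1269 and 1642 counts, 0.45 [0.35, 0.56], and PCLAF, a PCNA-binding factor, 766 and 419, -0.79 [-0.97, -0.62].

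Levels of different genes were compared as scaled CPM per kilobase of the longest annotated coding transcript, a length that need not be the one used in A549 cells. On this scale PCNA was the highest of the 49 in both libraries, at 170 and 240, followed in shNC by POLD4 (65.2) and TYMS (54.8), and in shDEPDC1B by POLD4 (119) and TYMS (68.9). TK1 went from 18.7 to 53.4. The lowest were CDT1 (1.79) in shNC and GINS3 (2.92) in shDEPDC1B. Within the rings, transcript levels of the subunits were unequal. The MCM ring ran from 6.57 (MCM2) to 29.5 (MCM7) in shNC and from 7.31 to 43.8 in shDEPDC1B. The clamp loader ran from 8.22 to 13.7 in shNC and from 4.34 to 24.0 in shDEPDC1B. RFC3, at 9.59, lay within the range of the other 4 subunits in shNC, and at 4.34 it was the lowest of the 5 in shDEPDC1B.

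**Figure D2:**
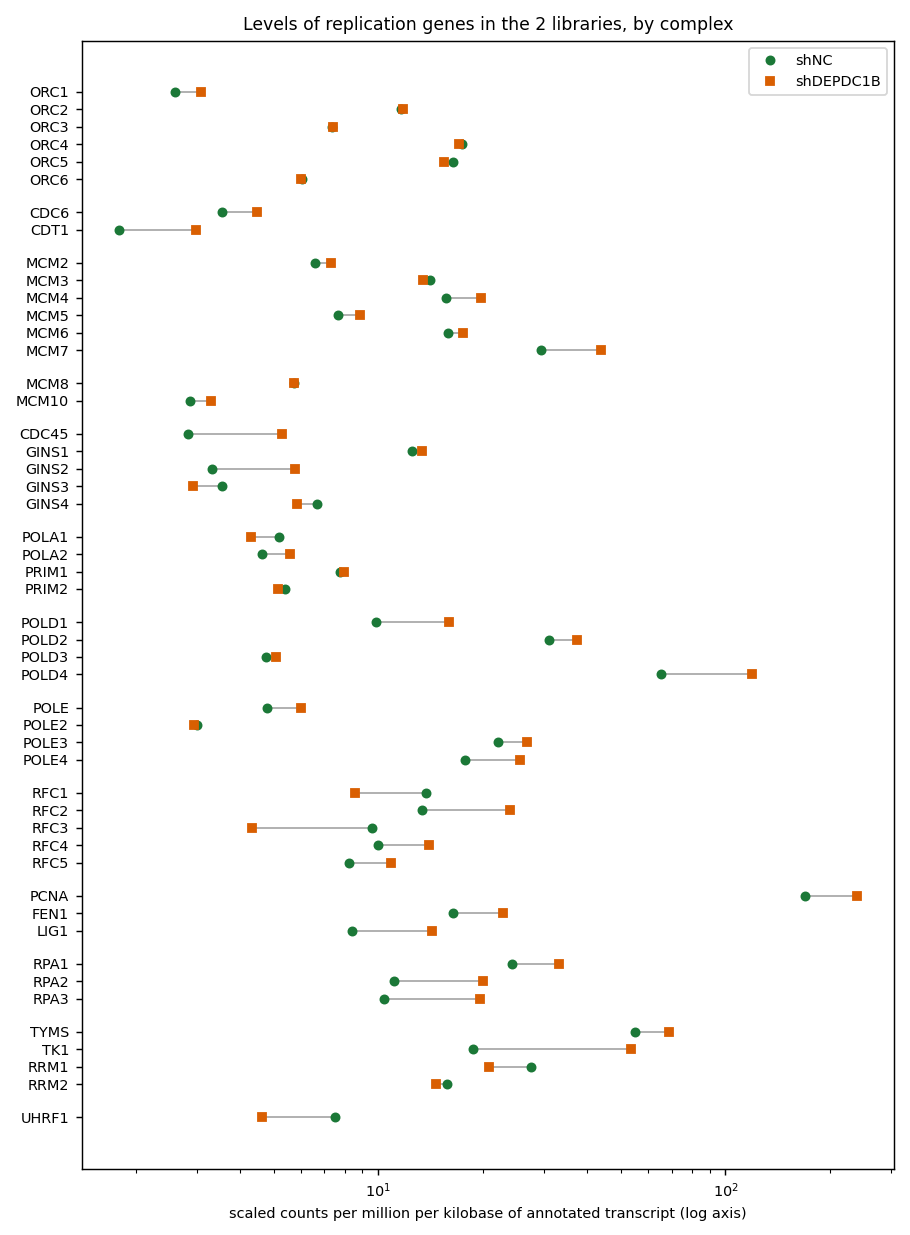
Level of each gene as scaled CPM per kilobase of transcript (log x axis) in shNC (circles) and shDEPDC1B (squares), 1 library each. The clamp loader genes lie close together in shNC, from 8.22 to 13.7, and apart in shDEPDC1B, from 4.34 to 24.0.

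The ratio varied with transcript length over all genes and among these 49. The Spearman correlation of the log2 ratio was -0.36 with length and 0.58 with GC content across the 49 genes, and -0.51 and 0.38 across the 13013 assessed genes with a length. Genes of 1 library share its preparation and are not independent replicates, so these are descriptions. Genes were divided by length into 5 equal bins. In the shortest (74 to 1958 nucleotides) the median was 0.51 for all genes and 0.49 for the 12 replication genes in it, and in the next (1959 to 2851) it was 0.27 for both, with 11 replication genes. In the middle bin (2852 to 4020) it was 0.04 for all genes and 0.15 for 15 replication genes. In the bin from 4022 to 5789 nucleotides it was -0.20 and 0.11, with 8 replication genes, and in the longest -0.51 and 0.00, with 3. The medians were thus close in the shorter bins, and that of the replication genes was above that of all genes in the longer ones.

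When a loess of the ratio on length over all genes was subtracted, 6 replication genes passed 1.5-fold upwards and RFC3 alone downwards, against 12.9% of all genes upwards and 15.0% downwards under the same correction. The 6 were CDT1, GINS2, POLD1, LIG1, TK1 and POLE. CDC45, POLD4, RFC2, RPA2 and RPA3 among the higher genes and RFC1 and UHRF1 among the lower came inside 1.5-fold. TK1 was at 1.08, LIG1 at 0.83 and GINS2 at 0.60. POLE, whose transcript of 7840 nucleotides is the longest of the 49, went from 0.32 to 0.83. RFC3, with 2402 nucleotides, went from -1.14 to -1.39. The part of transcript length in these ratios was not tested.

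**Figure D3:**
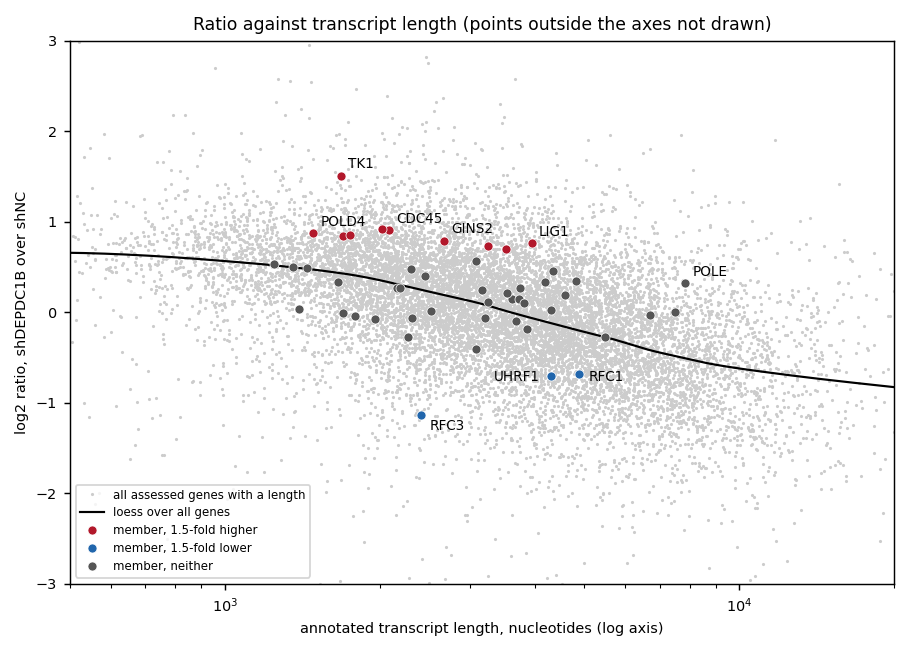
Log2 ratio (y axis) against annotated transcript length (log x axis) for assessed genes with a length that fall within the axes (grey points, with the loess over all of them as a black line) and the 49 genes (coloured points). TK1, LIG1 and POLE lie well above the line and RFC3 well below it.

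Of 75 further genes of the pathway, 74 could be assessed. By the same rule 13 were higher (17.6%) and 5 lower (6.76%), against 19.2% and 19.6% of all assessed genes, and their median was 0.08. The share higher was thus near the background and the share lower was below it. The same background applies to the counts of each list below. With libraries scaled by their totals 10 of these pathway genes were higher and 8 lower, against 14.6% and 23.2% of all assessed genes. With the length trend subtracted 13 were higher and 4 lower, against 12.9% and 15.0%, but not all were the same genes. GMNN was then at 0.17, DUT at 0.31, DTYMK at 0.24, NME2 at -0.00 and ASF1A at 0.39. TOPBP1 was at -0.36 and ATAD5 at -0.46, so all of these came inside 1.5-fold. The other genes given below as higher or lower stayed past it. In licensing and firing control, 4 of 15 genes were higher, namely GMNN, the helicase RECQL4 (0.82), cyclin A2 CCNA2 (0.85) and the phosphatase CDC25A (0.73), and 2 were lower, the initiation scaffold TOPBP1 (-0.72 [-0.86, -0.58]) and cyclin E2 CCNE2, with 81 and 47 counts. CDK2 was at 0.01 [-0.17, 0.19]. The kinase CDC7 that fires origins was at -0.15 [-0.43, 0.13] and its activator DBF4 at 0.26 [0.06, 0.46].

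Among 14 fork accessory genes, CHTF18 and RNASEH2A (0.95 [0.74, 1.16]) were higher and ATAD5 and WDHD1 lower. RNASEH2A is the catalytic subunit of the RNase that removes ribonucleotides from DNA, and WDHD1 links the helicase to polymerase alpha. WDHD1 had 467 and 202 counts, -1.13 [-1.37, -0.89]. Of 11 genes of replication-coupled chromatin, the histone chaperones ASF1B (1.19 [0.86, 1.53]), ASF1A (0.65) and CHAF1A (0.78) were higher and PCLAF lower. Neither subunit of the chaperone FACT passed the threshold, SSRP1 being at 0.38 [0.33, 0.43] and SUPT16H at -0.47 [-0.54, -0.41].

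Of 25 genes of nucleotide metabolism 4 were higher and none lower. They were SHMT1, DUT, which removes dUTP, DTYMK, the kinase that acts after TK1 and TYMS on the path to dTTP (539 and 863 counts, 0.76 [0.60, 0.92]), and NME2. With the length trend subtracted only SHMT1 of these 4 stayed past 1.5-fold, at 0.81. The deposited SHMT1 value is not in whole hundredths, unlike those of all 49 replication genes. The reason is not known from the sources used here, so the value is treated as uncertain. The E2F and DP factors held no gene at 1.5-fold among 9 assessed. E2F1, an activator, was at 0.42 [0.15, 0.69], the activator E2F3 at -0.38 [-0.53, -0.22], the repressor E2F7 at -0.57 [-0.87, -0.27], and the partner TFDP1 at -0.31 [-0.43, -0.20].

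**Figure D4:**
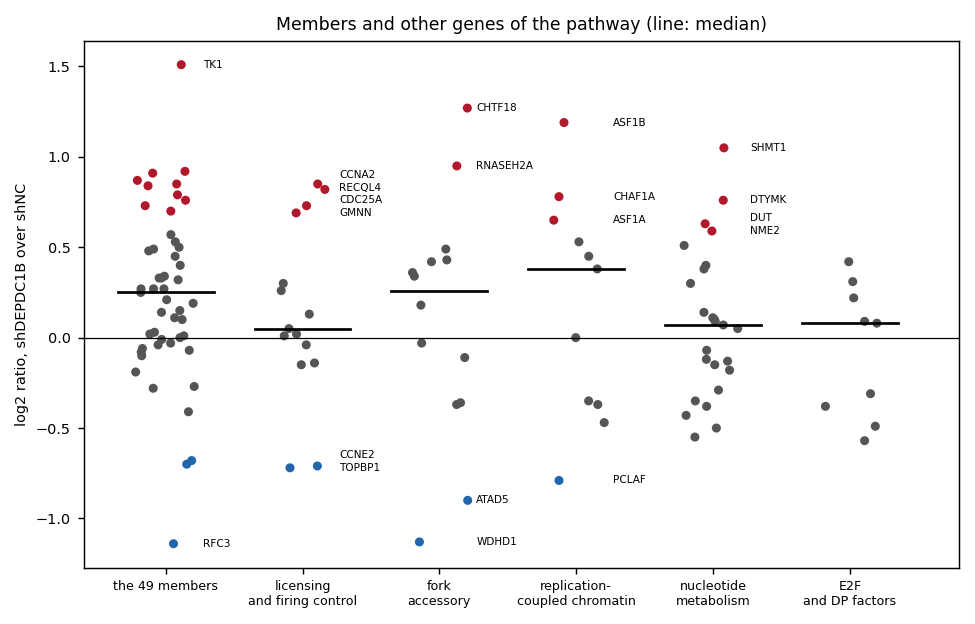
Log2 ratio (y axis) of the 49 replication genes and of 5 further lists (x axis, assessed genes, spread sideways for legibility), with lines at the medians, and red and blue points past 1.5-fold upwards and downwards. CHTF18 at 1.27 and WDHD1 at -1.13 mark the ends of the fork accessory list.

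E2F words were common in the promoter windows of genes on both sides of equality. RefSeq windows were found for 43 of the 49 genes, and 21 of these (48.8%) held at least 1 E2F word, against 568 of 10229 assessed genes with a window (5.55%) and 3.30% of all 27058 genes in the table. CCAAT was found in 27 (62.8%, against 43.3% of assessed genes), and the words TTTGAA or TTCGAA, which resemble the CHR element of mitotic genes, in 3 (6.98%, against 15.6%). A gene with several windows was counted once if any held the word, which applies to 11 of the 43 genes. The 21 genes with an E2F word had a median log2 ratio of 0.15 and the 22 without one 0.26. Of the genes with a window, 3 of the 8 higher, 2 of the 3 lower and 16 of the 32 others held an E2F word. CCAAT was in 4 of the 8 higher, 2 of the 3 lower and 21 of the 32 others. LIG1 and GINS2, printed above, were higher, and RFC3 and UHRF1, with the same TTTCCCGC word, were lower. A word is a match of letters and does not show that a factor binds there. Only these exact words were searched, so a window without one may still hold an E2F site spelled otherwise.

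**Figure D5:**
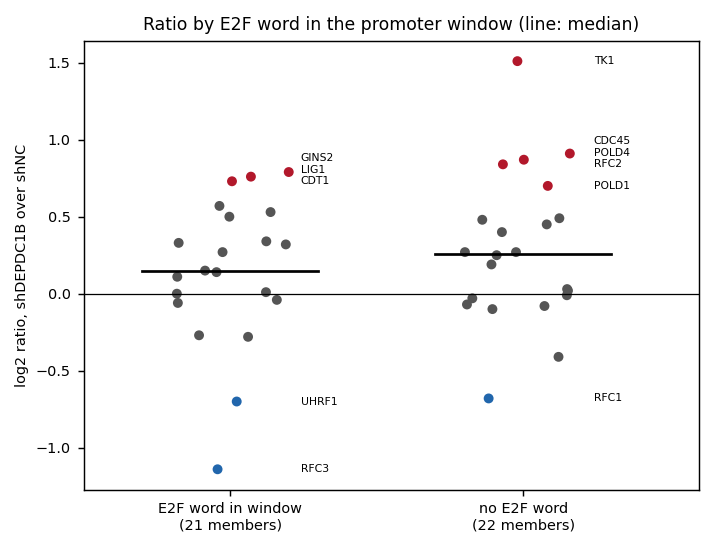
Log2 ratio (y axis) of 43 replication genes with a RefSeq promoter window, by whether the window holds an E2F word (x axis, points spread sideways for legibility, lines are medians). The groups overlap, with medians of 0.15 and 0.26.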

How the data were processed

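RNA of 2 A549 libraries, 1 per group by the treatment label, was measured. The deposited estimated counts per gene symbol were made by the authors with Bowtie2 and RSEM on hg38, per the submitters' processing notes. Tool versions, annotation, RNA selection and strand setting were not given in the sources used here. RSEM shares ambiguous reads between genes by a model, an error the intervals leave out. Reads carry no molecular identifiers, so intervals cover counting error only.

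Counts were rounded and scaled with TMM factors (edgeR 4.0.16, R 4.3.3). With 1 library per group no test could be run and no p-value is given. Ratios carry Clopper-Pearson 95% intervals, and changes of a count ratio carry exact conditional intervals of the odds ratio (scipy 1.17.1), without adjustment over the 82 pairs. Genes were assessed at 30 counts in the higher library. Lengths and coordinates are from GENCODE 29, and 94.0% of assessed genes had a length. Promoters are from RefSeq, GRCh38.p14. The ratio intervals and the rule for higher and lower were tested on simulated counts that held counting error only. The changes set there were larger than those of all 13 genes but TK1, so recovery near 1.5-fold was not tested. The length correction, the intervals of count ratios and the promoter search were not tested in this way. Every listed gene could be named, as could other pathway genes at 1.5-fold. The rule limited promoter sequences to 6 genes past 1.5-fold, and the others printed go beyond it. Genes outside this rule (CDK2, CDC7, DBF4, CHTF8, DSCC1, RRM2B, DNMT1, SSRP1, SUPT16H and E2F factors) were named after their values were seen. The members, lists and motifs were chosen with earlier results of these data known. Single values of some listed genes are not reported here.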

Additional observations from a re-analysis of the deposited data

How the results depend on the processing

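At a threshold of 2-fold, 1 replication gene was higher and 1 lower, with 3 and 1 of the other pathway genes, against 5.86% and 8.97% of all assessed genes. At a ratio of 25% above equality or its inverse, 20 replication genes were higher and 4 lower, with 25 higher and 18 lower among the other pathway genes, against 31.5% and 28.8% of all. With the loess on transcript length subtracted, 6 replication genes were higher and 1 lower, against 12.9% and 15.0%. A linear fit on length and GC kept 8 of the 13 calls and lost CDT1, POLD1, POLD4, RFC1 and RFC2, and RPA1 became higher, against 12.9% higher and 13.5% lower of all. GINS2, LIG1, TK1 and RFC3 passed under both corrections. With library totals, 8 other pathway genes were lower, against 23.2% of all assessed genes. The median of all genes then moved by -0.10, and lower genes made up 61.2% of all called genes, against 50.4%. All 13 calls held under DESeq2 1.42.0 size factors, totals, upper-quartile factors, filters of 10 or 100 counts or none, a loess on mean expression, and scaling on protein-coding genes. The median of the 49 genes stayed between 0.16 and 0.25 under every alternative run. Depth limits genes such as POLE2, GINS3 and CDT1, with 96 to 176 counts in a library.
No replicate could be left out, since each group has 1 library. No paired analysis was possible because each group has 1 library.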
